A study of Caenorhabditis elegans with 2 samples.

Results

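In chromatin immunoprecipitation followed by sequencing (ChIP-seq) for UNC-39 in Caenorhabditis elegans embryos, 486 peaks met a rank limit in both replicates. They fell below the authors' irreproducible discovery rate (IDR) threshold, and these sub-threshold peaks are described here. They were picked from the 9046 peaks of the relaxed list made from the pooled replicates, on build ce11. A peak was taken if it overlapped, by at least 1 bp, one of the 3000 strongest peaks of replicate 1 and one of the 3000 strongest of replicate 2, and overlapped none of the 267 regions of the optimal IDR list, called regions below. The lists of replicates 1 and 2 held 15880 and 30000 peaks, so the limit is a loose one. Strength is the deposited signal value of a peak, which comes from the authors' peak calling and was compared only within 1 list. Of the pooled peaks, 762 (8.42%) met both rank limits and 267 (2.95%) were called regions, so the 486 are what is left of the 762 once all peaks that overlap a called region are taken away. IDR analysis asks how far the ranks of peaks repeat between replicates. Here the 267 kept were the strongest pooled peaks, including 1 with no peak in replicate 1 and 1 with none in replicate 2. A peak left out is therefore not one whose own ranks were shown to repeat worse. Relaxed lists were made to hold background too, so a sub-threshold peak is not a called binding region.

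The animals were of strain OP186, which carries the unc-119(ed3) mutation on chromosome III and the transgene wgIs186, from which UNC-39 is made fused to enhanced green fluorescent protein (eGFP). Whole embryos of mixed stage and mixed sex were used, so the signal is an average over all embryonic cells. There was 1 group of 2 biological replicates, the labels name both eGFP-unc-39 and unc-39 as the target of the antibody, and the control library is not analysed here. The peak lists give no read counts, so the depth is unknown. With 1 group and no second condition, no p-values are given. UNC-39 is a homeobox protein of the sine oculis family and resembles vertebrate Six4 and Six5. It is known for roles in mesoderm differentiation, in the migration of cells and axons, and in the identity of the AIA interneurons. Homeodomain factors bind short DNA sequences, often near the transcription start site (TSS) of the genes they regulate or in introns, while in whole-animal ChIP-seq many factors also give signal at active promoters and at genes for small noncoding RNAs.

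The sequence at the summits shows what kind of places these peaks covered. The summit with 50 bases to each side is given here for a leading sub-threshold peak of each kind of location, read on the + strand of the RefSeq copy of WBcel235, the assembly that ce11 names. Capitals mark the words GAGACGCA and GAGAGAGA on either strand, which are counted with the other motifs. GC content over these bases ran between 37.6% and 60.4% among the sub-threshold peaks shown, and was 59.4% at the strongest called region, which is shown last for comparison.
Divergent promoter between clec-140 and hmg-11, chrII:4672674-4672774: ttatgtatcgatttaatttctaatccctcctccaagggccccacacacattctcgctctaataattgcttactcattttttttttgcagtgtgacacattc
Single promoter of cutl-23, beside a leucine tRNA gene, chrIII:5769797-5769897: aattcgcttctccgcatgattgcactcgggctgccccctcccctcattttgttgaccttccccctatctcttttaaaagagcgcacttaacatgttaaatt
Intron of aak-2, chrX:16796960-16797060: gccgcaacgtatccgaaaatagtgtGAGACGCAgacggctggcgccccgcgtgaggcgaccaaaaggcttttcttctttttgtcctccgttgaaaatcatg
Intergenic, near C29F9.8, chrIII:96383-96483: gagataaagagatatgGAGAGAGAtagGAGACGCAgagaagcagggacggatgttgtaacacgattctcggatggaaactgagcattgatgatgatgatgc
Coding exon of cnt-2, chrIII:10672992-10673092: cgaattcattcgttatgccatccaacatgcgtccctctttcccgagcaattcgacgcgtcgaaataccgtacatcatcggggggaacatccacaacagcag
Noncoding exon, let-413 the nearest TSS, chrV:7978897-7978997: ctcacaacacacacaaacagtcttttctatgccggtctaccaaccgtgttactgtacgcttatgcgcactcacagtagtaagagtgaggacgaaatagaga
Beside the snoRNA gene B0334.12 in an intron of twk-5, chrII:11484743-11484843: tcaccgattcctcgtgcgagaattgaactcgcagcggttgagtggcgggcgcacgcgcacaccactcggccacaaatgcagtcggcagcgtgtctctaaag
Strongest called region, promoter of atx-2, chrIII:10461266-10461366: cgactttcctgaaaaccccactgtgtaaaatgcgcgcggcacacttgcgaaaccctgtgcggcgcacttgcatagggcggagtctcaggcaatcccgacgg

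A run of 8 bases, GAGACGCA, recurred among the sub-threshold peaks, and it is given here with 12 bases to each side, on the strand that reads GAGACGCA, for 8 of them in order of pooled signal. They were picked after their values were seen, to show the word in introns, between genes and in promoters, and 2 called regions stand last. The strand is + unless named.
Near C29F9.8, intergenic, chrIII:96398-96429: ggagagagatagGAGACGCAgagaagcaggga
In aak-2, intron, chrX:16796973-16797004: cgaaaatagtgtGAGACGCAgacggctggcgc
Near pes-4, intron, chrIII:1224016-1224047: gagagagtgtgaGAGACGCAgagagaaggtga
Upstream of T07E3.4, promoter, minus strand, chrIII:6897810-6897841: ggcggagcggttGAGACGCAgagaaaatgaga
Near R05C11.4, intergenic, chrIV:2049088-2049119: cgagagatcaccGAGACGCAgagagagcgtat
Upstream of lit-1, promoter, minus strand, chrIII:13713066-13713097: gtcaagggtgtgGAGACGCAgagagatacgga
Upstream of cebp-1, promoter, chrX:1454557-1454588: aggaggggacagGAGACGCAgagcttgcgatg
In fkh-7, intron, chrIV:5600447-5600478: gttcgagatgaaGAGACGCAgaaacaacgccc
Called region upstream of hsp-3, promoter, chrX:6092141-6092172: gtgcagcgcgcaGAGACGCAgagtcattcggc
Called region near gtr-1, intergenic, minus strand, chrX:806681-806712: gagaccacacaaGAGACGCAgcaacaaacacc

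The sub-threshold peaks lay directly below the called regions in the pooled list, then thinned out. The 267 called regions were the 267 strongest pooled peaks, so the threshold here was also a line in the pooled ranking. Sub-threshold peaks had pooled signals between 18.4 and 44.2, with a median of 34.7, against 44.4 to 172.6 in called regions, with a median of 54.6. Their pooled ranks ran between 269 and 8904 with a median of 654.5. They made up 157 of the 233 pooled peaks of ranks 268 to 500 and 186 of the 500 of ranks 501 to 1000, and the other 143 ranked lower. These values chose the peaks and are a description.

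In the single replicates the sub-threshold peaks ranked much lower than the called regions. The median rank was 1114 in replicate 1 and 1141.5 in replicate 2, against 147.5 and 152.5 in called regions. Across the 486 peaks, Pearson's r of the 2 replicates' signals was -0.0126 and Spearman's rho was -0.0210. The rule used these signals and bounds them, so nothing is read from these values. Replicate 1 gave the better rank for 244 of the 486 peaks and replicate 2 for 242. The 2 ranks lay within 2-fold of each other for 236 of them (48.6%), against 91 of 265 called regions with a peak in both lists (34.3%). The rank limit bounds the sub-threshold ranks, so this too is a description. Replicate summits of the sub-threshold peaks lay a median of 64 bp apart, against 32 bp in those 265 called regions. Of the 486, 199 (40.9%) had them within 50 bp of each other, against 173 of 265 (65.3%). Among pooled ranks 268 to 1000 the median was 47 bp in 343 sub-threshold peaks. It was 46 bp in 337 peaks of those ranks that failed a rank limit but had a peak in both lists. Called regions met the rank limits themselves in 254 of 267 cases. Of the other 13, 4 ranked below 3000 in replicate 1 and 7 in replicate 2, and 1 had no peak in replicate 1 and 1 none in replicate 2.

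**Figure D1:**
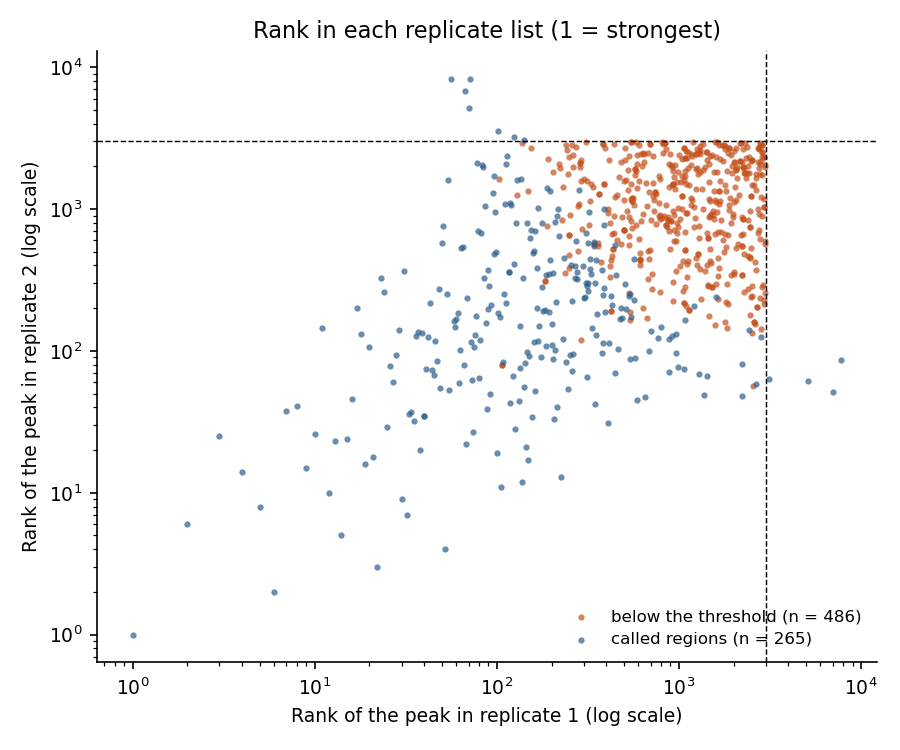
Rank of each peak in replicate 1 (x axis) and replicate 2 (y axis), both on log scales with 1 the strongest, for 486 sub-threshold peaks and 265 called regions with a peak in both lists. Dashed lines mark the rank limit of 3000. Sub-threshold peaks fill the upper right corner inside the limits, and called regions extend from there toward rank 1 in both replicates.

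Few sub-threshold peaks were near the top of both replicates. The rule largely fixes this, as it leaves out the 267 strongest pooled peaks, so these ranks are a description. Only 2 sub-threshold peaks were among the 267 strongest of both, against 118 of the called regions, and these 2 share 1 peak of each replicate. That pair lay at cfim-2, which encodes a subunit of the messenger RNA cleavage factor Im, and beside the snoRNA gene D1046.6 (chromosome IV, 8927035 to 8927410 and 8927262 to 8927637). The replicate peaks ranked 107 in replicate 1 and 80 in replicate 2, with signals of 34.3 and 30.9, while the pooled peaks had signals of 42.6 and 35.1 and ranked 307 and 624. Their replicate summits lay 291 bp apart. Only 15 sub-threshold peaks were among the 500 strongest of both replicates and 96 among the 1000 strongest, and 207 ranked below 2000 in at least 1 of them.

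Some sub-threshold peaks are shoulders of others. A replicate peak that qualified one also overlapped a stronger pooled peak in 47 cases, and in none of these was the stronger peak a called region. Joined by shared replicate peaks or by overlap, the 486 fell into 442 loci, 44 of them with 2 peaks. Of the 49 with a pooled rank below 3000, 29 shared a replicate peak with a stronger pooled peak. The 3 weakest had pooled signals of 18.6 near F28F9.2, 18.4 upstream of tgt-2 and 18.4 in nhr-243, a nuclear receptor gene, with replicate ranks between 1799 and 2351 and replicate summits 229, 295 and 267 bp apart.

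No gap in signal stood at the rank limit. The peaks just inside lay upstream of rcat-1 (replicate ranks 547 and 2986), wwp-1 (805 and 2991) and rgs-1 (2992 and 2058). Just outside were peaks near F57G12.1 (3011 and 2528), oac-49 (3012 and 1855) and T09B4.5 (3020 and 2162). The signal at rank 3000 was 15.35 in replicate 1 and 13.01 in replicate 2, and the next peak of each list had the same value at that precision. The pooled peak at rank 268, the strongest below the threshold, was left out by this limit: it lay upstream of EEED8.15 with a signal of 44.3 and ranked 121 in replicate 1 and 3257 in replicate 2.

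The strongest sub-threshold peak lay between genes on chromosome I (4703093 to 4703468), 1323 bp upstream of W09C3.4, with a pooled signal of 44.2. It ranked 537 in replicate 1 and 188 in replicate 2. Among the 20 strongest, 6 summits lay in promoters, 6 in introns, 5 between genes and 3 in noncoding exons, and none lay in a coding exon. Promoter means the 1000 bp before the TSS of a protein-coding gene. For 11 of the 20 a protein-coding TSS was within 1000 bp, and 3 had a tRNA or snoRNA gene within 200 bp.

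Promoter peaks among these 20 lay at genes of many kinds. The peak upstream of unc-40, the netrin receptor gene that guides axons and migrating cells, had a signal of 43.3 (chromosome I, 5691604 to 5691979, 289 bp upstream) and ranked 336 in replicate 1 and 1441 in replicate 2. It lay between unc-40 and npp-7, a nuclear pore gene, whose TSS was 472 bp away. A peak 511 bp upstream of unc-85, which encodes a histone chaperone of the ASF1 type, had a signal of 43.1 and ranked 1135 and 194. In it 82.9% of the 31-base words occurred elsewhere in the genome, the only sub-threshold peak with at least 50% of such words. The sources used here do not give how reads with several matches were treated. Other promoter peaks lay at bag-1, a co-chaperone gene (signal 43.4, 174 bp upstream), fbxl-2 (43.7, 69 bp upstream), cutl-23 (44.03, 338 bp upstream) and between clec-140 and hmg-11 (44.2, 336 and 361 bp upstream).

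Intron peaks had similar signals. The peak in aak-2, a catalytic subunit gene of AMP-activated protein kinase, had a signal of 43.96 (chromosome X, 16796822 to 16797197) and ranked 238 in replicate 1 and 352 in replicate 2. A peak in mls-2, a homeobox gene that acts in the postembryonic mesoderm lineage and in neurons, had a signal of 43.1 (chromosome X, 4759768 to 4760143), lay 1684 bp from the TSS and ranked 1605 and 296. Others lay in cogc-3, a Golgi complex subunit gene (signal 43.8), twk-5, a potassium channel gene (43.5), scl-20 (43.4) and K01F9.2 (43.9). The other intergenic summits were nearest to the TSS of C29F9.8, casc-3, W05H9.4 and Y15E3A.5. The summits in noncoding exons were nearest to let-413, a gene of epithelial polarity, T23F11.4 and chdp-1. No pooled peak of any rank lay within 1000 bp of unc-39 itself. The pooled summit nearest to its TSS was 17007 bp away and ranked 1576, and the nearest sub-threshold summit was 63301 bp away.

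By annotation the sub-threshold peaks stood between called regions and the other pooled peaks. Those others had a median pooled rank of 4873, against 654.5 for the sub-threshold peaks, so the sets differ in rank. Each summit counted in 1 class only, and a promoter took priority over any exon or intron, so a promoter summit can also lie inside a gene. Promoters held 178 of 486 summits (36.6%, 95% exact interval 32.3 to 41.1), against 128 of 267 in called regions (47.9%, 41.8 to 54.1) and 26.8% of the 8269 other pooled peaks (25.8 to 27.8). Coding exons showed the reverse order, with 64 sub-threshold summits (13.2%, 10.3 to 16.50) against 5 in called regions (1.87%, 0.611 to 4.32) and 24.9% of the other pooled peaks (24.01 to 25.9). None of these 3 intervals overlaps another in either class. All sets come from the same 2 libraries, so the shares describe these lists, the intervals cover counting error only, and no test between sets was made.

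In the other classes the intervals of sub-threshold peaks and called regions overlapped. Introns held 92 sub-threshold summits (18.9%, 15.5 to 22.7) against 14.6% of called regions (10.6 to 19.4). Intergenic sequence held 100 (20.6%, 17.1 to 24.4) against 21.3% (16.6 to 26.8). Exons of noncoding genes held 38 (7.82%, 5.59 to 10.6), against 13.9% of called regions (9.95 to 18.6) and 3.89% of other pooled peaks (3.49 to 4.33). There were 9 summits in 5′ UTRs and 5 in 3′ UTRs, against 0 and 1 in called regions. Of the promoter summits 34 lay between divergent genes, which is 6.996% of all sub-threshold peaks, against 10.9% of called regions and 2.88% of other pooled peaks.

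**Figure D2:**
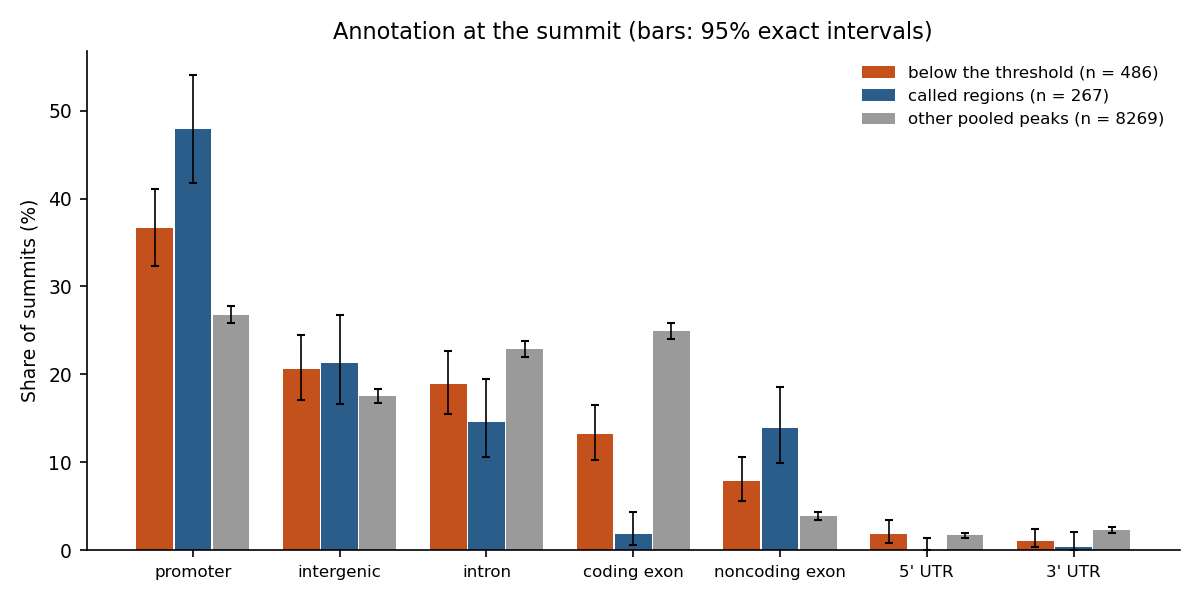
Share of summits (y axis, percent) in each annotation class (x axis) for sub-threshold peaks, called regions and other pooled peaks, with 95% exact intervals. The sub-threshold share lies between the other two for promoters (36.6%) and coding exons (13.2%).

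Coding exon summits had a median pooled rank of 759. The strongest lay in cnt-2, which encodes a GTPase-activating protein for Arf, 196 bp downstream of its TSS, with a signal of 42.5 and ranks of 931 in replicate 1 and 306 in replicate 2. The next, named after its values were seen, lay in lin-42, the worm relative of the clock gene Period, with a signal of 42.4 and ranks of 1442 and 285. Of the 64, 33 had a TSS within 1000 bp, and their GC content averaged 45.7% ± 6.23 (SD over 64 peaks), close to 45.1% ± 6.62 over the 178 promoter summits. None of the 64 held the word GAGACGCA or the GA repeat, and the exact upper limit for each share is 5.601%.

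Sub-threshold summits near a TSS leaned upstream, less so than called ones. A protein-coding TSS lay within 1000 bp of 251 summits (51.6%, 47.1 to 56.2), against 146 of 267 called regions (54.7%, 48.5 to 60.8) and 46.1% of other pooled peaks (45.03 to 47.2). Relative to the nearest TSS, 158 of the 251 lay upstream (62.9%, 56.6 to 68.9), against 121 of 146 in called regions (82.9%, 75.8 to 88.6) and 48.7% of other pooled peaks (47.1 to 50.3). Those upstream had a median position of 291 bp before the TSS, against 276 bp in called regions. The bin of 100 to 200 bp upstream held the most sub-threshold summits, 35 or 7.20% of all, and it held 10.49% of called summits.

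**Figure D3:**
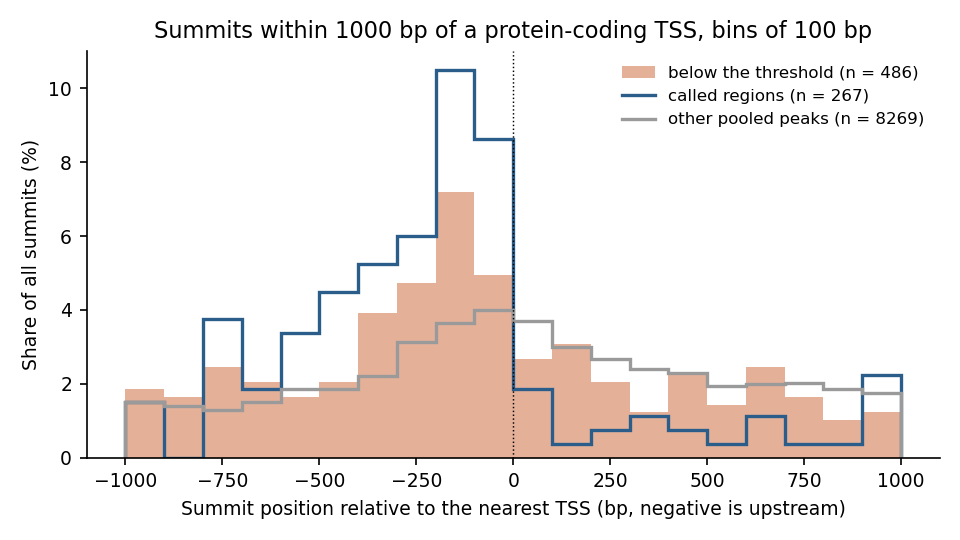
Position of summits relative to the nearest protein-coding TSS (x axis, bp, bins of 100 bp) as a share of all summits of a set (y axis, percent). Sub-threshold peaks have their highest bin at 100 to 200 bp upstream (7.20%) and 93 of 251 lie downstream, against 25 of 146 in called regions.

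Peaks in the same range of pooled ranks that failed the replicate rule had nearly the same locations. This comparison was chosen after seeing the data. Among pooled ranks 268 to 1000 there were 343 sub-threshold peaks and 385 peaks that lacked one of the 3000 strongest peaks in at least 1 replicate, while 5 overlapped called regions. The 385 are named unreplicated for short, although 337 of them had a peak in both replicate lists. Promoters held 37.03% of the sub-threshold peaks (31.9 to 42.4) and 36.4% of the unreplicated ones (31.5 to 41.4). Coding exons held 12.5% (9.22 to 16.51) and 12.21% (9.11 to 15.9), and a TSS within 1000 bp was found for 51.3% (45.9 to 56.7) and 50.9% (45.8 to 56.01). The match in strength is loose, as the median pooled signal was 36.9 in the sub-threshold peaks and 33.3 in the unreplicated ones.

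Along the pooled ranking location did change. Over all pooled peaks the promoter share was 47.9% in ranks 1 to 267, 42.5% in ranks 268 to 500, 33.8% in 501 to 1000 and 25.8% beyond 4000. The coding exon share was 1.87%, 6.01%, 15.2% and 26.4% in the same ranges. Sub-threshold peaks gave 42.04% for promoters in ranks 268 to 500 and 32.8% in 501 to 1000. They gave 37.5% over 72 peaks of ranks 1001 to 2000, 23.7% over 38 of ranks 2001 to 4000 and 45.5% over 33 beyond rank 4000. Their coding exon shares in the same ranges were 7.64%, 16.7%, 16.7%, 18.4% and 6.06%.

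**Figure D4:**
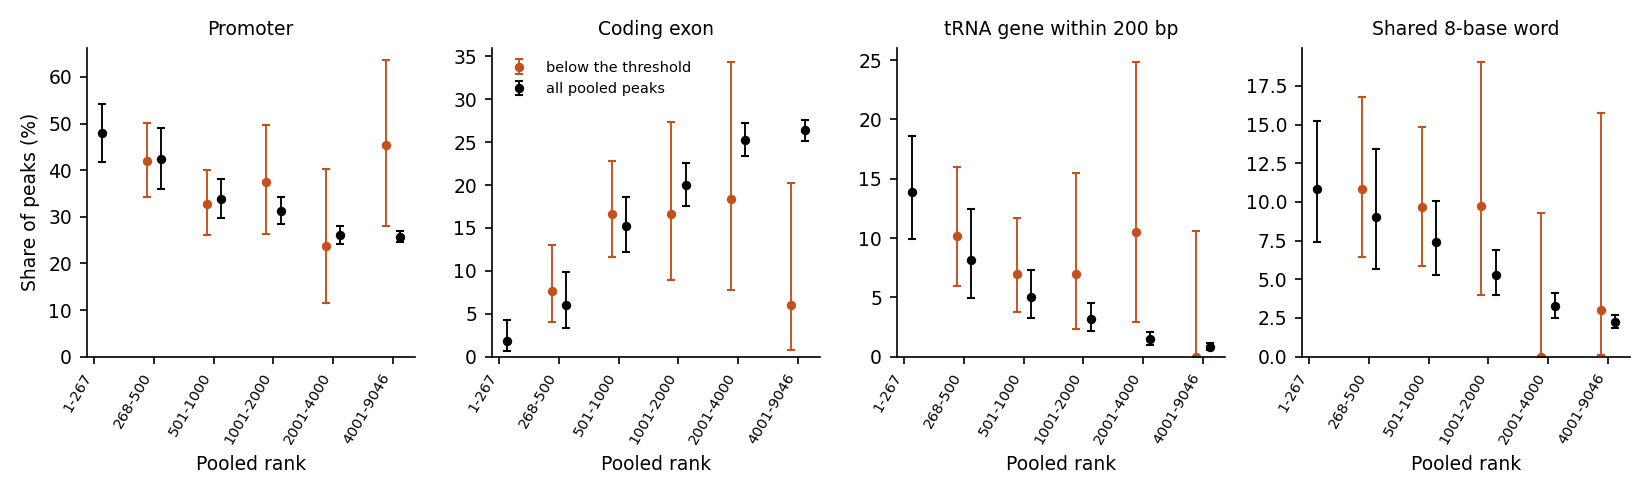
Share of peaks (y axis, percent, with 95% exact intervals) by pooled rank (x axis) for promoters, coding exons, tRNA genes within 200 bp and the word GAGACGCA, shown for sub-threshold peaks and for all pooled peaks. Over all pooled peaks, promoter and tRNA shares are highest in ranks 1 to 267 and the coding exon share is lowest there, and the lowest rank bins hold only 38 and 33 sub-threshold peaks.

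Genes for small noncoding RNAs had sub-threshold peaks at lower shares than called regions, with intervals that overlapped for tRNA genes and did not for snoRNA genes. Genes for tRNAs are short and are transcribed by RNA polymerase III from promoter elements inside the gene. In 38 cases a sub-threshold summit had a tRNA gene within 200 bp (7.82%, 5.59 to 10.6), against 37 of 267 called regions (13.9%, 9.95 to 18.6) and 1.32% of other pooled peaks (1.08 to 1.59). A snoRNA gene, whose product guides the modification of other RNAs, lay near 11 (2.26%, 1.14 to 4.01) against 26 called regions (9.74%, 6.46 to 13.9) and 0.580% of other pooled peaks. For snRNA genes there were 2 sub-threshold summits and 4 called ones, and for rRNA genes none in either set, with an exact upper limit of 0.756% among sub-threshold peaks.

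The sub-threshold peaks were near 36 of the 612 annotated tRNA genes (5.88%). None of these was among the 41 near called regions, which the rule nearly fixes, since it leaves out peaks that overlap a called region. The 36 genes covered 15 of the 21 isotypes in the RefSeq annotation, with 5 each for arginine and valine and 4 each for leucine and serine. The annotated genes of each isotype were not counted, so these numbers do not rank the isotypes. The strongest was at a leucine tRNA gene (WBGene00022898, chromosome III, 5769904 to 5769985) with a signal of 44.03 and ranks of 322 in replicate 1 and 777 in replicate 2. The next were at an alanine tRNA gene (WBGene00014596, signal 42.9, ranks 247 and 1761) and a serine tRNA gene (WBGene00022974, signal 42.7, ranks 710 and 351). Those 2 peaks were picked for naming with their values in view. The summit fell inside a tRNA gene for 12 of the 38 peaks, against 21 of 37 called ones. Because tRNA genes occur in near-identical copies, reads from one copy may be counted at another, and this was not tested.

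Sub-threshold summits were near 10 of the 346 snoRNA genes (2.89%) and 2 snRNA genes (1.55% of those annotated), against 27 and 3 for called regions. The strongest snoRNA peak, at Y71F9AM.7 on chromosome I (2935557 to 2935932), lay in cogc-3 with a signal of 43.8 and ranks of 421 and 397. The snRNA genes were F38E11.11 (WBGene00014366, signal 41.4, ranks 548 and 1500) and sls-2.9, a spliced leader RNA gene (39.2, ranks 1307 and 376). A single peak on chromosome X lay at the microRNA genes cel-mir-56, cel-mir-55 and cel-mir-55b, with a signal of 37.1 and ranks of 527 and 1874. Among the other classes, 4 summits lay near lincRNA genes (0.823%), 5 near piRNA genes (1.03%) and 9 near pseudogenes (1.85%). In other pooled peaks these shares were 0.266%, 1.37% and 2.39%. For microRNA genes the share was 0.206% in sub-threshold peaks and 0.230% in other pooled peaks.

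Within the same range of pooled ranks the tRNA share was higher in the sub-threshold peaks than in the unreplicated ones, with overlapping intervals. In ranks 268 to 1000 it was 8.45% (5.74 to 11.9) in sub-threshold peaks and 3.90% (2.20 to 6.34) in unreplicated ones, while the snoRNA share was 2.62% (1.21 to 4.92) and 2.60% (1.25 to 4.72). When only the 2000 strongest peaks of each replicate were allowed, the tRNA share was 11.1%, and when only 1 replicate was required it was 3.54% without replicate 1 and 3.14% without replicate 2.

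Chromosome X carried 121 of the 486 summits (24.9%, 21.1 to 29.0), close to the 69 of 267 in called regions (25.8%, 20.7 to 31.5) and above the 18.8% of other pooled peaks (17.9 to 19.6). X makes up 17.7% of the length of the nuclear chromosomes. The share of sub-threshold peaks on X was 18.5% (12.7 to 25.4) in ranks 268 to 500 and 31.2% (24.6 to 38.4) in ranks 501 to 1000, with overlapping intervals. In ranks 268 to 1000 it was 25.4% (20.8 to 30.3) in sub-threshold peaks and 21.04% (17.1 to 25.5) in unreplicated ones, which overlap too. Over all 486 peaks there were 6.83 sub-threshold peaks per Mb on X and between 4.12 and 4.72 on the autosomes. X also has 276 of the annotated tRNA genes, and 20 of the 38 peaks near tRNA genes lay there. Without peaks near tRNA, snoRNA or snRNA genes the X share was 23.2%. Chromosome IV held 14.8% of sub-threshold summits (11.8 to 18.3) against 10.9% of called ones (7.396 to 15.2), and V held 19.5% (16.113 to 23.4) against 14.98% (10.9 to 19.8). The sub-threshold summits lay a median of 102386 bp from the nearest called summit, against 119598 bp for other pooled peaks. Among ranks 268 to 1000 the medians were 100629 bp for sub-threshold peaks and 98950 bp for unreplicated ones. Of the sub-threshold summits, 9 were within 1000 bp and 41 within 5000 bp of a called summit.

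The protein-coding genes with a sub-threshold summit within 1000 bp of a TSS numbered 281 of 19973 (1.41%), against 188 (0.941%) for called regions and 3934 (19.7%) for other pooled peaks. Both kinds were found at 2 genes. The gene mdl-1, which encodes a bHLH protein of the Mad type, had a sub-threshold summit 636 bp downstream of its TSS (signal 36.3) and a called one 137 bp upstream (signal 74.3). The other gene, unc-84, which encodes a SUN domain protein of the nuclear envelope, had a sub-threshold summit 871 bp downstream (signal 30.3) and a called one 659 bp upstream (signal 45.03).

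Among lists of genes that bear on what UNC-39 is known for, axon guidance and cell migration genes had the highest share. Of 74 such genes, 8 had a sub-threshold summit within TSS range, which is 1000 bp (10.8%, 4.78 to 20.2), against 3 for called regions (4.05%, 0.844 to 11.4). The share over all protein-coding genes was 1.41%. The strongest were unc-40 (signal 43.3), smp-1, a semaphorin gene (39.3, 364 bp downstream), sax-7, an L1-type adhesion gene (38.6, 234 bp upstream), and cam-1, which encodes a receptor tyrosine kinase of the Ror type (35.8, 176 bp downstream). In replicate 1 these ranked 336, 1807, 2023 and 1047, and in replicate 2 they ranked 1441, 543, 358 and 1008. The other 4, named after their values were seen, were mig-10, unc-76, unc-52 and unc-44, with signals between 29.3 and 34.7. A TSS here is the start of any annotated transcript, so a gene with many transcripts may have more starts in reach. The summits at sax-7, mig-10, unc-52 and unc-44 were in range only of starts inside the annotated gene. The shares were not adjusted for the number of starts per gene. Of these 74 genes, 32 (43.2%) had another pooled peak in the same range, so signal near them is common in the relaxed list.

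Over gene bodies the same list was counted again, in part with the same genes. The count, made after the TSS counts were seen, was 11 of 74 genes with a sub-threshold summit inside the annotated gene (14.9%) against 2 with a called one, and 1.06% of all protein-coding genes had one. The 5 that had no TSS in range were ptp-3, which encodes a receptor phosphatase of the LAR type (signal 42.7, ranks 273 and 2748), unc-115 (38.9), sax-3, the Robo receptor gene (34.8), vab-1, the Eph receptor gene (33.7), and unc-53 (33.1). With both ways of counting, 13 of the 74 genes had a sub-threshold peak, beside 389 of all 19973 protein-coding genes. The body genes other than these 5 were already counted by TSS, so the counts are not separate. The shares were not adjusted for gene length, and its part in them was not tested.

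Lists for mesoderm, muscle, neurons and homeodomain factors gave between 0 and 2 genes each with a TSS in range, beside the 1.41% of all protein-coding genes. No TSS of 34 mesoderm and myogenic regulators was in range (exact upper limit 10.3%), of 12 AIA identity genes (26.5%) or of 6 genes of the sine oculis, eyes absent and dachshund families (45.9%). Of the homeobox genes only ceh-30, a gene of the BarH type, had one (0.990%), at its 5′ UTR with a signal of 24.03, and 1 gene of that list had a called region. Inside genes there were also peaks in mls-2 and, on the mesoderm list, in pop-1, which encodes the TCF factor of Wnt signalling (signal 38.8, ranks 961 and 363, coding exon). By gene bodies the mesoderm list had 2 genes (5.88%) and the homeobox list 2 (1.98%), beside 1.06% of all protein-coding genes. Of 57 muscle structure genes 2 had a TSS in range (3.51%, 0.428 to 12.11), unc-112, the kindlin gene (signal 42.2, 393 bp upstream, ranks 675 and 507), and unc-52, the perlecan gene (33.1, ranks 1355 and 1001, coding exon). No gene of that list had a called region. Of 23 pan-neuronal genes unc-10, which acts in synaptic vesicle release, had one in a coding exon (30.8, ranks 581 and 2963), a share of 4.35% (0.110 to 21.9).

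Housekeeping lists were mixed. Over all protein-coding genes the shares were 1.41% for a sub-threshold summit and 0.941% for a called one. Ribosomal protein genes had 6 of 80 with a sub-threshold summit (7.50%, 2.80 to 15.6) and the same number with a called one. No gene was in common, which the rule nearly fixes, and over all protein-coding genes only 2 were. Of the 80, 42 (52.5%) had another pooled peak, against 19.7% of all protein-coding genes. The strongest of the sub-threshold set were rpl-20 (signal 43.04, 299 bp upstream, ranks 251 and 387), rps-12 (41.1, ranks 712 and 273), rpl-28 (40.5, ranks 519 and 966) and rpl-22 (34.7, ranks 624 and 2460). The rpl-28 summit was in range of mrpl-49 as well, a mitochondrial ribosomal protein gene. Of the 66 genes of that kind 2 had one (3.03%, 0.369 to 10.5). Among 83 histone genes 3 had a sub-threshold summit (3.61%, 0.752 to 10.2), namely his-37 (41.4), the linker histone gene his-24 (34.3) and hil-2 (34.3), against 9 with a called one (10.8%, 5.08 to 19.6). The sub-threshold intervals of the histone and mitochondrial ribosomal lists include 1.41%.

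Cell cycle genes had 5 of 86 (5.81%, 1.91 to 13.05, beside 1.41% of all protein-coding genes) against 4 with a called region (4.65%, beside 0.941%). These included cdk-7, a kinase gene that acts in the cell cycle and in transcription (41.8, 43 bp upstream, ranks 280 and 1044), the CDK inhibitor genes cki-2 (37.3) and cki-1 (34.97), and efl-3 (30.6). Among 32 heat shock and chaperone genes hsp-90 (41.6, ranks 621 and 826) and hsp-12.3 (41.4, ranks 548 and 1500) had one, and the hsp-12.3 summit was the one beside the snRNA gene F38E11.11. Of 73 splicing genes the pair rsp-1 and rsp-2, which encode SR proteins, shared a single summit (41.2, ranks 190 and 765). Collagen genes had 4 of 176 (2.27%, 0.623 to 5.72), which were col-175, col-58, col-54 and dpy-7, with signals between 33.4 and 37.3. Intervals for the collagen, heat shock (6.25%, 0.766 to 20.8) and splicing lists (2.74%, 0.334 to 9.55) include 1.41%.

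Of the remaining lists, only that of chemoreceptor genes had an interval wholly below the share over all protein-coding genes. The intervals of the others include that share. Chemoreceptor genes had 3 of 1285 (0.233%, 0.0482 to 0.681), below the 1.41% over all protein-coding genes, and 9.03% of them had another pooled peak against 19.7% of all protein-coding genes. Nuclear receptor genes had 2 of 274 (0.730%, 0.0885 to 2.61), sex-1 (37.5) and nhr-32 (34.8), both on X. Of 41 bHLH genes mdl-1 and hlh-30, the gene for the worm relative of TFEB (29.2), had one. The lists of T-box genes, V-ATPase genes and intestine genes had none, out of 22, 22 and 25 genes (exact upper limits 15.4%, 15.4% and 13.7%). Several lists had a single gene, which was eef-1G of 42 translation factor genes (38.7), rpn-8 of 33 proteasome genes (41.2), spn-4 of 33 germline genes (40.3), nlp-4 of 143 neuropeptide genes (33.4) and fbxa-135 of 322 F-box genes (22.6). In that order the shares were 2.38%, 3.03%, 3.03%, 0.699% and 0.311%.

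Around the summits the DNA was rich in G and C. Over windows of 100 bp to each side of the summit, GC content averaged 44.97% ± 6.67 in sub-threshold peaks (SD, n = 486), 47.2% ± 6.37 in called regions (SD, n = 267) and 40.7% ± 6.87 in other pooled peaks (SD, n = 8269). Tiles of the same length across the genome averaged 35.4% ± 7.23. In ranks 268 to 1000 the means were 45.8% in sub-threshold peaks and 44.5% in unreplicated ones.

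The word GAGACGCA had the highest share relative to the flanks among the 11 motifs searched. It was also among the leading words when all words of its length were sorted by share at the summits minus share in the flanks. No source for this word apart from these peaks is given, so its place among the motifs is a description and not a test. Motifs were searched on both strands, and this word and the GA repeat can share up to 4 bases. It occurred in 43 sub-threshold windows (8.85%, 6.48 to 11.7), against 29 called windows (10.9%, 7.396 to 15.2) and 2.99% of other pooled windows (2.63 to 3.38). In windows 500 bp away from the sub-threshold summits it occurred in 1.44%, and in genome tiles in 0.979%. In ranks 268 to 1000 it was in 10.2% of sub-threshold windows (7.21 to 13.9) and 5.97% of unreplicated ones (3.82 to 8.83), which overlap. The word was a median of 33.5 bp from the sub-threshold summit and within 50 bp in 28 of 43.

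The bases after the word were often the same, G and then A, as in the windows printed for C29F9.8, aak-2 and lit-1. The next base was G in 42 of 43 sub-threshold windows and in 27 of 29 called ones. After it came A in 33 of 43 and in 24 of 29, and the base before the word was A in 26 of 43 and in 16 of 29. Of the 43 peaks with the word, 17 lay in promoters, 14 between genes, 8 in introns and 4 in noncoding exons, 20 had a TSS in range, and 6 were on X. None of the 38 peaks near tRNA genes held it, and 1 of 37 called regions near tRNA genes did. The exact upper limit for 0 of 38 is 9.25%, which includes the 8.85% over all sub-threshold peaks.

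The GA repeat, GAGAGAGA, was in 37 sub-threshold windows (7.61%, 5.42 to 10.3), against 12.7% of called windows (8.98 to 17.3) and 4.43% of other pooled windows (3.99 to 4.89). Its share was 1.75% in the flanks and 1.32% in genome tiles. In ranks 268 to 1000 it was 7.58% in sub-threshold windows and 11.9% in unreplicated ones, with overlapping intervals (5.01 to 10.9 and 8.88 to 15.6). The alternating word CACACACA, found afterwards among all 8-base words, was in 43 sub-threshold windows (8.85%) and 1.23% of their flanks, against 7.12% of called windows.

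The Six4-type sequence TGACACC had overlapping intervals in all 3 sets of summits. It was in 16 sub-threshold windows (3.29%, 1.89 to 5.29) and 2.47% of their flanks, against 4.87% of called windows (2.62 to 8.18), 3.43% of other pooled windows (3.05 to 3.85) and 1.93% of tiles. Among ranks 268 to 1000 it was in 3.79% of sub-threshold windows (2.03 to 6.39) and 6.23% of unreplicated ones (4.03 to 9.13), which overlap. The word GGGTTCGA, which is part of the B box inside tRNA genes, was in 11 sub-threshold windows (2.26%, 1.14 to 4.01) against 7.49% of called windows (4.64 to 11.3) and 0.366% of tiles, and 8 of the 38 peaks near tRNA genes held it against 16 of 37 called ones. The E-box CAGCTG was in 6.79% of sub-threshold windows, 4.01% of flanks and 3.87% of tiles.

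AT-rich motifs were less frequent at the summits than 500 bp away. The T run TTTTTTTT was in 9.05% of sub-threshold windows (6.66 to 11.96) and 20.6% of their flanks, against 7.87% of called windows and 22.8% of tiles. TATAAA was in 11.3% and 20.99% of flanks, against 12.4% of called windows and 21.2% of tiles. TTTTCAG, the core of the splice acceptor for the SL1 leader and of introns, was in 10.49% (7.91 to 13.6) and 20.3% of flanks, against 5.24% of called windows (2.90 to 8.64) and 20.5% of tiles.

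The other motifs searched were AGATAA (7.20%, flanks 10.7%, tiles 11.5%, plotted as the GATA motif), CACGTG (4.73%, flanks 3.70%, tiles 3.33%) and TGACGTCA (1.85%, flanks 1.54%, tiles 1.12%).

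**Figure D5:**
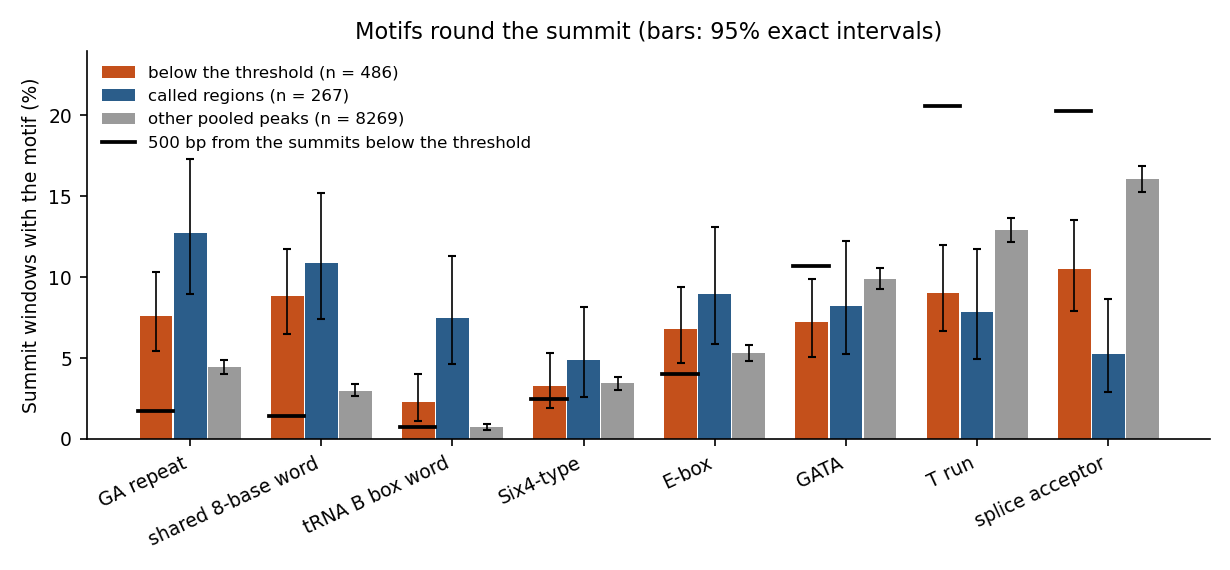
Share of windows, 100 bp to each side of a summit, that hold each motif (y axis, percent, 95% exact intervals) for sub-threshold peaks, called regions and other pooled peaks, with black lines for windows 500 bp from the sub-threshold summits. The shared 8-base word is in 8.85% of sub-threshold windows and in 1.44% of those 500 bp away, while T runs and the splice acceptor word lie below their flanks.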

How the data were processed

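ChIP-seq peak lists of 1 group with 2 biological replicates were used, on build ce11, with the ce10 lists as an alternative. The signal values and the −log10 q values of each peak are as deposited by the authors. Per the files deposited with the samples, the lists were made from aligned reads of both replicates and of a control. Which aligner and peak caller were used, with what settings, and which promoter drives the transgene is not stated in the sources used here, and how the signal was scaled between libraries is not known. The lists hold no read counts, so depth and the precision it gives are unknown.

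Peaks were ranked by signal within each list, with ties by chromosome and then start. Summits were annotated with Ensembl release 115, and tRNA isotypes and sequence came from RefSeq WBcel235. Windows of 100 bp to each side of the summit were searched for 11 motifs, and tiles of the same length covered the genome. A summit had sequence in common with other places where its 31-base words recurred. Shares have exact 95% Clopper-Pearson intervals for counting error alone. The work used Python 3.11.15, numpy 2.4.6, pandas 2.3.3, SciPy 1.17.1 and matplotlib 3.10.9. The peak rule was tested on simulated lists.

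The peaks and all 25 gene lists were chosen with earlier results of these data known. The comparison within ranks 268 to 1000, the counts over gene bodies and the 8-base words were added after the data were seen. Peaks and genes were named by a rule: the 20 strongest and 3 weakest peaks, up to 4 genes of each list, the strongest peak of each small RNA class, unc-39 and the peaks at the rank limit. Exceptions are marked. The alternatives were other rank limits, ranking by −log10 q, overlap of at least 0.5 of a peak, other distances and windows, ce10, 1 peak per locus, and either replicate left out.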

Additional observations from a re-analysis of the deposited data

How the results depend on the processing

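Of 232 values recomputed under an alternative, 196 lay within a set range around the reported value and 36 outside it. That range was the exact interval for a share, 1 SD over peaks for GC content and 1.5 times for a count. For GC content it ran from 38.3% to 51.6% and held even the 40.7% mean of other pooled peaks. A GC value within it is therefore no sign that GC content held, and sizeable changes in counts fall within it too. With the 2000 strongest peaks of each replicate there were 279 sub-threshold peaks, the tRNA share was 11.1% and the GAGACGCA share 11.8%. Without replicate 1 or without replicate 2, only the rank limit of the remaining replicate applied. There were then 2064 to 2323 peaks, with 28.9% to 32.4% in promoters, 18.5% to 23.6% in coding exons, 3.14% to 3.54% near tRNA genes, 19.2% to 21.8% on X, and GAGACGCA in 4.89% to 5.04%. Promoters of 500 bp held 24.7% and promoters of 2000 bp held 51.03%. In windows of 50 bp to each side GAGACGCA was in 5.56%. By construction, wider promoters hold more summits and shorter windows fewer motifs. For the other moves the cause was not tested. Values with the 4000 strongest peaks of each replicate (725 peaks), a larger overlap with the pooled peak (388 peaks), ranking by −log10 q, 1 peak per locus and the ce10 lists lay within that range. Mean GC content was 44.97% as reported, 44.1% without replicate 1 and 41.04% without replicate 2, the last near the 40.7% of other pooled peaks. No paired analysis was possible because there is 1 group. With 2 libraries, unknown depth, whole embryos and no analysed control, the shares describe these lists, and signal in fewer cells cannot be told apart from weaker signal in more cells.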
